A study of Homo sapiens with 24 samples.

Results

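The 10 genes described here are 3 receptor tyrosine kinases and their ligands: *EGFR* with its ligands *TGFA*, *AREG*, *EREG*, *HBEGF* and *BTC*, *MET* with its ligand *HGF*, and *AXL* with its ligand *GAS6*. They were taken by gene symbol from a table of raw counts on 39321 genes, in 24 RNA-Seq libraries of A498 and 786-O, which are established human lines of clear cell renal carcinoma (ccRCC). All 10 had counts in the 12 libraries labelled A498, and 9 of them had counts in the 12 libraries labelled 786-O, where *EGFR* was listed at 0 in every library. Each line was transfected with 20 nM of a non-targeting control siRNA pool (Cnsi) or of a single siRNA pool against PD-L1 (PD-L1si), and after 24 hours was left untreated or given 50 ng/mL of interferon gamma (IFNγ) for another 24 hours. The untreated groups are named by their siRNA alone (Cnsi and PD-L1si) and the treated ones are Cnsi IFNγ and PD-L1si IFNγ. Each line has 3 replicates of every group, all groups were transfected, and the growth protocol describes lines carrying a stable Renilla luciferase reporter. The sample characteristics name the silenced libraries knockout, and the treatment protocol's siRNA was followed instead. The comparisons ask how IFNγ changed these genes and whether silencing of PD-L1, the ligand of the T cell receptor PD-1 that IFNγ induces, altered them or their response.

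EGFR, MET and AXL are membrane receptors that signal through RAS and ERK and through PI3K and AKT once a ligand brings their kinase domains together. The EGFR ligands are made as membrane-bound precursors and are released by ADAM proteases, HGF is secreted as an inactive precursor that serine proteases cleave, and GAS6 bridges AXL to phosphatidylserine on membranes. In ccRCC, loss of VHL stabilizes hypoxia-inducible factors, *TGFA* is a known target of these factors, and MET and AXL are targets of kinase inhibitors used against the disease.

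*AREG*, *EREG* and *BTC* lie near each other on chromosome 4 and all rose with IFNγ in the libraries labelled A498, while *BTC* rose and *AREG* fell in those labelled 786-O. *HGF* went from 0 or a few counts to detection in both. For this reason the 250 bases before the RefSeq start of these 4 genes are shown here (GRCh38.p14, gene strand, 5′ to 3′), at chr4:74444886-74445135 (+) for *AREG*, chr4:74364895-74365144 (+) for *EREG*, chr4:74794524-74794773 (-) for *BTC* and chr7:81770048-81770297 (-) for *HGF*. Capitals mark exact matches, on either strand, to a cAMP response element (TGACGTCA) or a GC box (GGGCGG, or its reverse complement).
AREG: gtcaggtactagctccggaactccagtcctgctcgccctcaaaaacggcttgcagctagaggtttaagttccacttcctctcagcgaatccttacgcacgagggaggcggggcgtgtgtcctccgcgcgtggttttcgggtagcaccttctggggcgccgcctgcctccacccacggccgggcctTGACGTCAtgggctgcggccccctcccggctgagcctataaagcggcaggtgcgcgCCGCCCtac
EREG: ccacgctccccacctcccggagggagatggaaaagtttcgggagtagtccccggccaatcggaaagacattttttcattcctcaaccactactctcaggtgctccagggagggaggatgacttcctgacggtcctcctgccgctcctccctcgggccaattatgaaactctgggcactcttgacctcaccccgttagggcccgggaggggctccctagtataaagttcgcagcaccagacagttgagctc
BTC: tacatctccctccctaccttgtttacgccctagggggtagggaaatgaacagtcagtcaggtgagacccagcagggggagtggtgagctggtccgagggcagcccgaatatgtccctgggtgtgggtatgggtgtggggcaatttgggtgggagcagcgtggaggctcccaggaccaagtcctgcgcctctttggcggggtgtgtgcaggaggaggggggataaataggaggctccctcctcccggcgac
HGF: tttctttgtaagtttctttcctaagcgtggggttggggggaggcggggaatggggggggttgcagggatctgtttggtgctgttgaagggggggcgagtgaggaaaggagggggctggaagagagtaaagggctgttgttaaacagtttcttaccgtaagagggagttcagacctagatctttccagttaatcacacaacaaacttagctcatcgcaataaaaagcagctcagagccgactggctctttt
Of the 35116 RefSeq windows of this length, 1.65% held the cAMP response element, which among the 10 genes was found before *AREG* only, and 42.6% held a GC box, which was found before 7 of the 10. Also searched were the core of the interferon-stimulated response element (GAAA repeated after 2 bases, in 3.02% of windows) and the AP-1 site (TGANTCA, 6.57%). For the core of the hypoxia response element, only the letters ACGTG (18.5%) were searched. These letters were in none of the 10 windows, which is a description of the windows alone. The letters GCGTG were not searched, although they occur in the windows of *AREG*, *BTC* and *HGF* shown here. Whether the windows lack a hypoxia response element was therefore not tested. Where a gene had 2 windows (*EGFR*, *TGFA* and *AXL*), only the one nearest the annotated start of the gene was searched. The windows of *HGF* and *TGFA* lie inside the annotated spans of these genes, which end at 81770438 and 70554193.

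The libraries held 19256316 to 27907526 counts in those labelled A498 and 26807875 to 30350461 in those labelled 786-O. The lines were sequenced on different instruments, so line and instrument cannot be told apart. In addition, 1475 genes with over 1000 counts summed over the libraries labelled A498 were listed at 0 in all libraries labelled 786-O, among them *ACTB*, an actin gene every cell uses, and *EGFR*. *EGFR* was therefore treated as not measured in 786-O, and no level or fold is given for it there. *PAX8*, a renal transcription factor, had 1632 to 5012 counts in the libraries labelled A498 and 5965 to 7069 in those labelled 786-O. The renal and ccRCC markers summed to 4145 to 5024 counts per 1000000 (CPM) in A498, with 0 of 8 at 0. In 786-O they summed to 3834 to 6195 CPM, with 1 of 8 (*PAX2*) at 0. *PAX2* had 618 to 1083 counts in A498, so it may, like *EGFR*, not be measured in 786-O. Within the sums *VIM* was high, at 74362 to 116751 counts in A498 and 44858 to 71930 in 786-O. *CA9* had only 15 to 63 counts in A498 and 206 to 916 in 786-O, and *NDUFA4L2* 19 to 98 and 2 to 10. The marker sums use raw library totals, and all other CPM values use TMM-scaled library sizes. Leukocyte markers summed to at most 0.933 CPM and endothelial markers to at most 1.15 CPM in any library. Fibroblast markers summed to 1.68 to 14.1 CPM in A498 and to 0.243 to 1.36 CPM in 786-O, with *COL1A1* and *DCN* at 0 in the latter, and their part in the results was not tested. *CD274*, which encodes PD-L1, was at 191 to 199 CPM in A498 Cnsi IFNγ against 26.9 to 28.5 in PD-L1si IFNγ, and at 55.7 to 65.8 against 30.6 to 32.7 in 786-O, log2 fold changes of -2.81 and -0.94.

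IFNγ changed most of the 10 genes in the libraries labelled A498. In Cnsi cells *MET*, *AXL*, *AREG*, *EREG*, *BTC* and *HGF* rose and *TGFA* and *GAS6* fell, which makes 6 higher and 2 lower of 10, where 18.2% of the 20916 genes tested were higher and 18.5% lower (36.8% in either direction). A gene is said to rise or fall where edgeR's quasi-likelihood test gave an adjusted p-value under 0.05 and the log2 fold change was beyond 0.5 or -0.5. *EGFR* and *HBEGF* were below that fold limit. *HGF* had enough counts to be tested in its IFNγ groups only, in both lines. The median log2 fold change of the 10 genes was 1.13, and that of all genes tested was -0.03. In these bulk libraries, fewer cells that express a gene and less RNA per cell cannot be told apart. The labels do not say that the replicates came from separate cultures, so the p-values measure the spread between these libraries, which may be technical.

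In the libraries labelled 786-O, IFNγ raised *MET*, *BTC* and *HGF* and lowered *TGFA* and *AREG* in Cnsi cells. These are 3 higher and 2 lower of the 9 genes measured, where 11.1% of the 21209 genes tested were higher and 7.39% lower (18.5% in either direction). The median log2 fold change of the 9 genes was 0.27, against 0.005 over all genes. The genes that moved the same way with IFNγ in the Cnsi cells of both lines were *MET*, *BTC*, *HGF* and *TGFA*, and *AREG* moved in opposite directions.

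**Figure D1:**
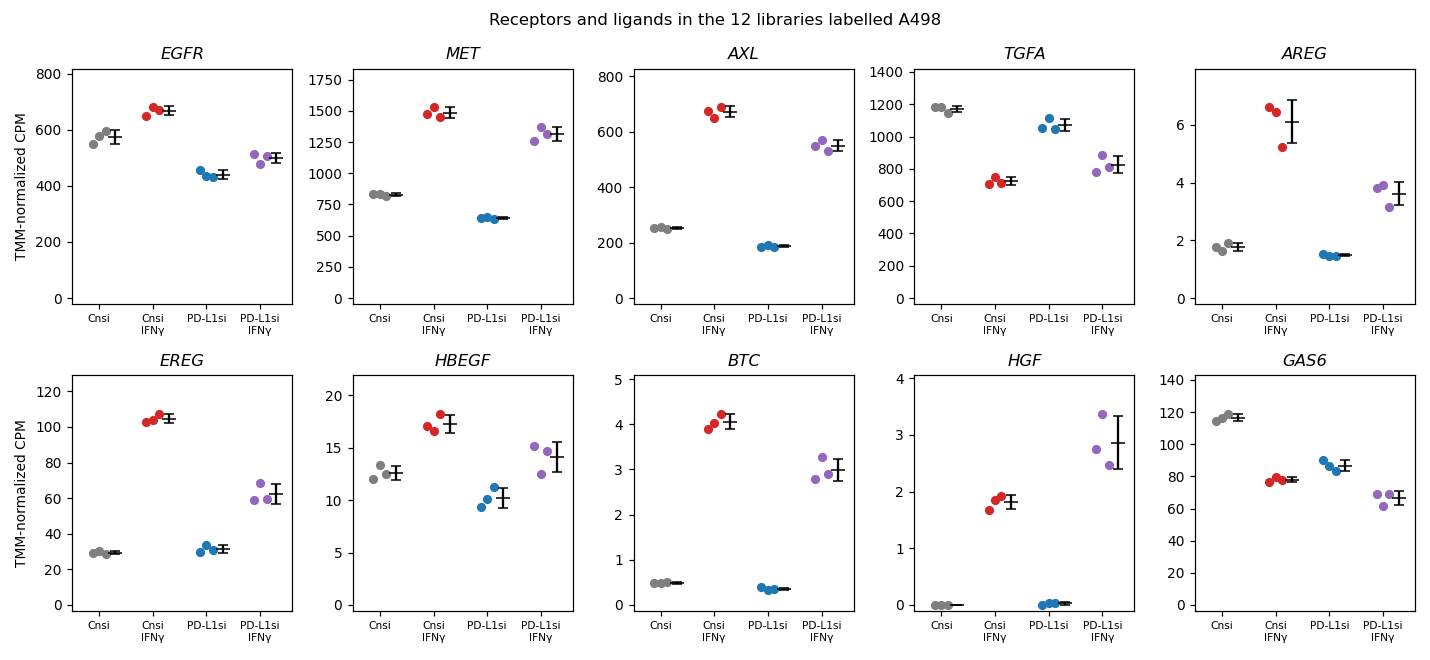
TMM-normalized CPM (y axis, linear, from 0) of the 10 genes in the 12 libraries labelled A498, by group (x axis), with 1 point per library and the mean ± SD of 3 replicates as a bar beside it. With IFNγ, *MET*, *AXL*, *AREG*, *EREG*, *BTC* and *HGF* lie above and *TGFA* and *GAS6* below the untreated libraries of the same siRNA, and *EREG* reaches 105 CPM in Cnsi IFNγ but 62.3 CPM in PD-L1si IFNγ.

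*EGFR* (ENSG00000146648, chromosome 7, 55019017 to 55211628, plus strand, GRCh38) was measured in the libraries labelled A498 only. Its levels were 548, 578 and 597 CPM in Cnsi and 650.2, 682 and 673 CPM in Cnsi IFNγ, so that every IFNγ library was above every untreated one. The log2 fold change was nevertheless small, at 0.22 ± 0.0407 (SE, n = 3 per group; adjusted p = 1.65e-05). With PD-L1si the levels were 457, 434 and 431 CPM without IFNγ and 514, 479 and 507 CPM with it, and the log2 fold change was 0.18. The antisense gene *EGFR-AS1*, which overlaps *EGFR* on the opposite strand, had 267 to 518 counts in these libraries against 9090 to 17594 for *EGFR*. Its log2 fold change with IFNγ in Cnsi was 0.28, also under the fold limit. In the libraries labelled 786-O *EGFR-AS1* had 178 to 339 counts, although *EGFR* itself was listed at 0.

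*MET* (ENSG00000105976, chromosome 7, 116672196 to 116798377, plus strand), the HGF receptor, rose with IFNγ in both lines. In A498 it was at 831, 837 and 814 CPM in Cnsi and at 1476, 1532 and 1448 CPM in Cnsi IFNγ, a log2 fold change of 0.84 ± 0.0386 (SE; adjusted p = 3.29e-20). In 786-O it was at 765, 749 and 805 CPM in Cnsi and at 1145, 1430.4 and 1369.8 CPM in Cnsi IFNγ, a log2 fold change of 0.77 ± 0.0671 (adjusted p = 1.46e-08). The groups did not overlap in either line. The wider spread of the treated 786-O cells came from replicate 1, which was also the lowest of its group for *TGFA*, *AXL* and *GAS6*. In PD-L1si cells the rise was 1.03 in A498 and 0.80 in 786-O on the log2 scale.

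*AXL* (ENSG00000167601, chromosome 19, 41219223 to 41261766, plus strand), the GAS6 receptor, had the largest log2 fold change of the 3 receptors in A498. It went from 251, 255 and 248 CPM in Cnsi to 676, 651 and 689.7 CPM in Cnsi IFNγ, a log2 fold change of 1.42 ± 0.0399 (SE; adjusted p = 1.37e-26). In PD-L1si cells of this line it was at 184, 192 and 185 CPM without IFNγ and at 549, 569 and 529.8 CPM with it, a log2 fold change of 1.55. In 786-O the levels were 125, 126 and 127 CPM in Cnsi and 147, 198 and 190.2 CPM in Cnsi IFNγ. That log2 fold change of 0.50 ± 0.0822 (adjusted p = 1.70e-04) lay just under the fold limit, at 0.496. It passed without Cnsi replicate 3 (0.50) and without Cnsi IFNγ replicate 1 (0.62). In PD-L1si cells of 786-O it was 0.31. The antisense gene ENSG00000269652, which overlaps *AXL*, had 175 to 649 counts in A498, against 4569 to 16785 for *AXL*. It rose by 1.20 on the log2 scale with IFNγ in Cnsi. The strand setting stated for the counting is the opposite of the orientation that the stated library kit gives, although *AXL* held most counts of the pair. Whether reads of one gene were counted on the other was not tested.

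**Figure D2:**
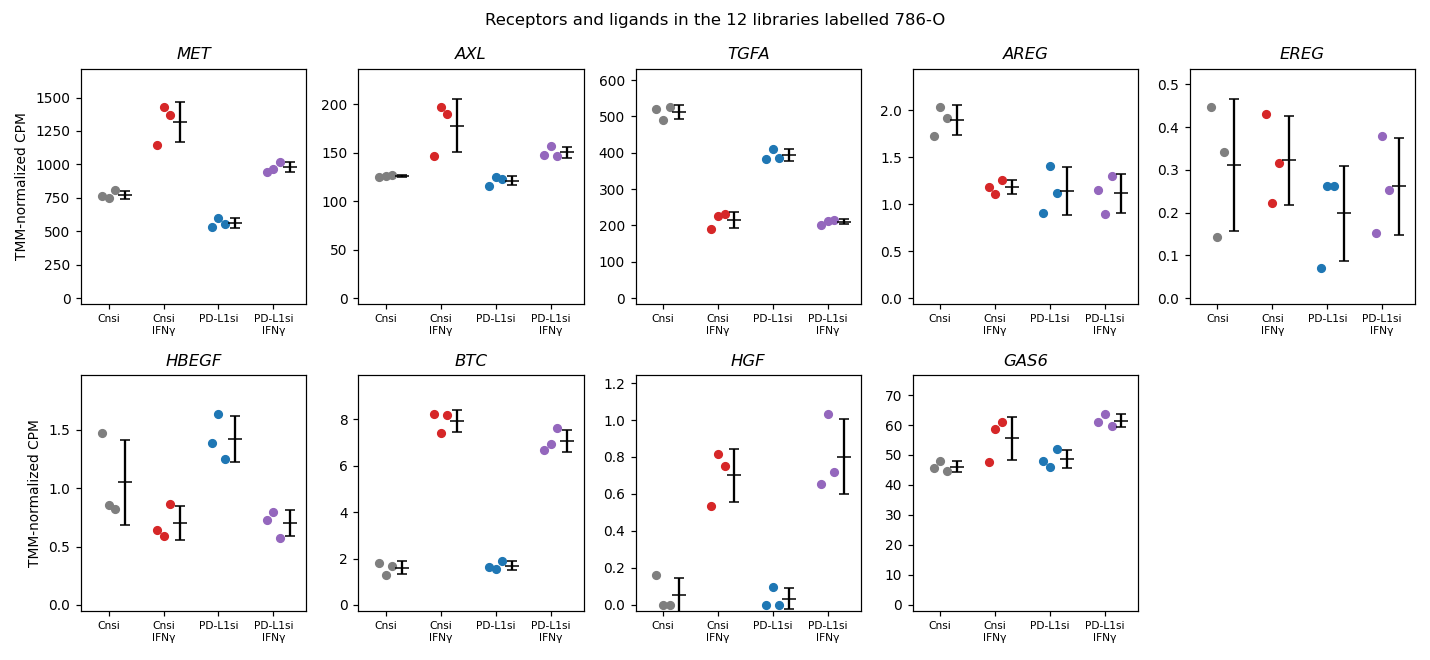
TMM-normalized CPM (y axis, linear, from 0) of the 9 genes measured in the 12 libraries labelled 786-O, by group (x axis), with 1 point per library and the mean ± SD of 3 replicates as a bar beside it. *MET*, *BTC* and *HGF* are higher and *TGFA* is lower with IFNγ, while *EREG* stays between 0.0694 and 0.448 CPM in all groups.

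*TGFA* (ENSG00000163235, chromosome 2, 70447284 to 70554193, minus strand), a high-affinity EGFR ligand, had the highest level per exon length of the 5 EGFR ligands and fell with IFNγ. In A498 it was at 1181, 1184 and 1147 CPM in Cnsi and at 706, 752 and 714 CPM in Cnsi IFNγ, a log2 fold change of -0.69 ± 0.0426 (SE; adjusted p = 1.68e-16). In 786-O it was at 519, 489.5 and 527 CPM in Cnsi and at 190.5, 225 and 231 CPM in Cnsi IFNγ, a log2 fold change of -1.25 ± 0.0583 (adjusted p = 4.21e-15). The groups did not overlap in either line, and the fitted fold was 0.618 in A498 and 0.421 in 786-O. In PD-L1si cells the log2 fold change was -0.37 in A498, under the fold limit, and -0.91 in 786-O.

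*EREG* (ENSG00000124882, chromosome 4, 74365145 to 74388749, plus strand), epiregulin, rose with IFNγ in A498. Its levels were 29.1, 30.4 and 28.5 CPM in Cnsi and 103, 104 and 107 CPM in Cnsi IFNγ, a log2 fold change of 1.84 ± 0.0556 (SE; adjusted p = 1.35e-25). In PD-L1si cells it went from 29.7, 33.9 and 30.8 CPM to 58.9, 68.6 and 59.5 CPM, a log2 fold change of 0.99 ± 0.0572 (adjusted p = 3.72e-17). The IFNγ level with PD-L1si thus lay between the untreated and the IFNγ level with the control siRNA. In 786-O *EREG* had only 2 to 14 counts per library, and a change of this gene with IFNγ was not detectable at this depth (log2 fold change 0.04 in Cnsi, adjusted p = 0.962).

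*AREG* (ENSG00000109321, chromosome 4, 74445136 to 74455005, plus strand), amphiregulin, starts 56387 bases beyond the end of *EREG*. In A498 it had 44, 41 and 48 counts in Cnsi and 158, 166 and 109 in Cnsi IFNγ, which is 1.77 ± 0.142 against 6.10 ± 0.748 CPM (SD, n = 3) and a log2 fold change of 1.79 ± 0.139 (SE; adjusted p = 9.22e-14). In 786-O it had 54, 57 and 56 counts in Cnsi and 33, 30 and 32 in Cnsi IFNγ, 1.89 ± 0.157 against 1.18 ± 0.0756 CPM, and fell by 0.67 on the log2 scale (SE 0.200; adjusted p = 0.00848). The groups did not overlap in either line, and the responses went in opposite directions. In the PD-L1si cells of 786-O it was at 0.902, 1.41 and 1.11 CPM without IFNγ and at 1.15, 0.896 and 1.30 CPM with it, and these groups overlapped.

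*BTC* (ENSG00000174808, chromosome 4, 74744759 to 74794523, minus strand), betacellulin, a ligand of EGFR and ERBB4, had the largest fold of the 5 EGFR ligands in both lines. In A498 it went from 12, 12 and 13 counts in Cnsi to 93, 104 and 88 in Cnsi IFNγ, 0.491 ± 0.0234 against 4.06 ± 0.169 CPM (SD, n = 3), a log2 fold change of 3.03 ± 0.189 (SE; adjusted p = 2.74e-16). In 786-O it went from 57, 36 and 49 counts to 230, 200 and 208, or 1.82, 1.29 and 1.68 CPM to 8.24, 7.40 and 8.20 CPM, a log2 fold change of 2.31 ± 0.133 (adjusted p = 1.65e-13). In PD-L1si cells IFNγ also raised *BTC*, by 3.02 in A498 and 2.06 in 786-O on the log2 scale. Of the other genes between *EREG* and *BTC*, ENSG00000249942, a long non-coding RNA, was the only one tested in A498, where its log2 fold change with IFNγ in Cnsi was 0.91 (adjusted p = 0.0441), and none was tested in 786-O.

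*HBEGF* (ENSG00000113070, chromosome 5, 140332843 to 140346603, minus strand), which also binds EGFR and ERBB4, was at 12.0, 13.3 and 12.5 CPM in A498 Cnsi and at 17.0, 16.6 and 18.2 CPM in Cnsi IFNγ. The groups did not overlap, but the log2 fold change of 0.45 ± 0.0796 (SE; adjusted p = 6.20e-06) was under the fold limit. That of 0.47 in PD-L1si cells was too, and reached 0.54 without PD-L1si replicate 3 and 0.55 without PD-L1si IFNγ replicate 2. In 786-O the gene had 46, 24 and 24 counts in Cnsi and 18, 16 and 22 in Cnsi IFNγ, with a log2 fold change of -0.60 that did not pass the test (adjusted p = 0.0846) and was -0.75 (adjusted p = 0.0430) without Cnsi replicate 3. In the PD-L1si cells of that line it had 40, 50 and 38 counts without and 19, 23 and 16 with IFNγ, and fell by 1.02 on the log2 scale (SE 0.256; adjusted p = 0.00223).

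**Figure D3:**
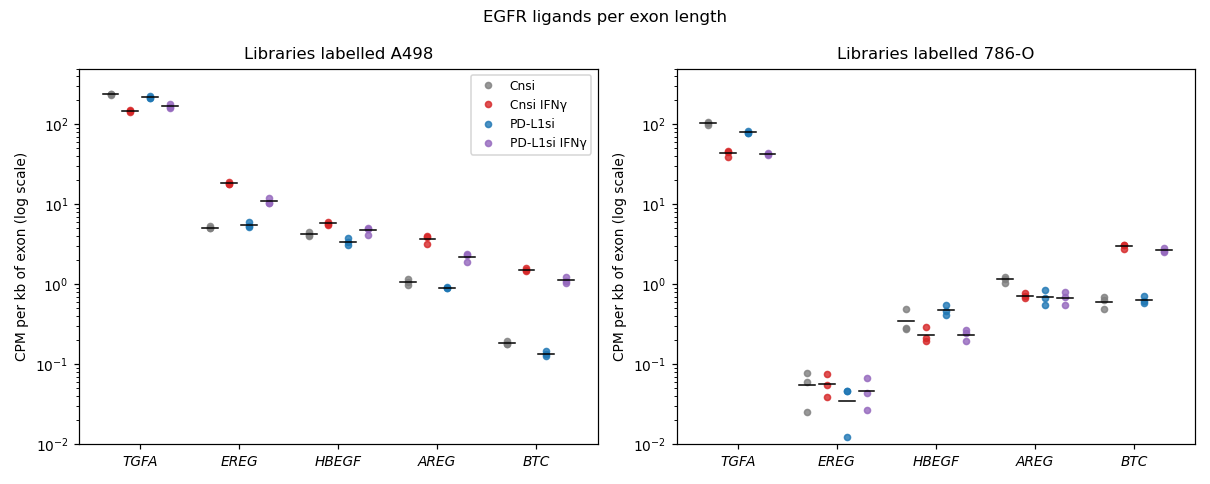
CPM per kilobase of merged exon length (y axis, log scale) of the 5 EGFR ligands (x axis) in the libraries labelled A498 (left) and 786-O (right), with 1 point per library coloured by group and a line at each group mean. *TGFA* lies above the other ligands in all groups, and *EREG*, at 5.13 in A498 Cnsi, is at 0.0545 in 786-O Cnsi, where the lines were scaled separately.

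Per kilobase of merged exon, a scale that takes gene length into account but depends on the annotated isoforms, *TGFA* made up 95.6 to 95.9% of the summed level of the 5 EGFR ligands in A498 Cnsi. With IFNγ this share was 83.0 to 84.0%, and *EREG* made up 9.98 to 10.7% in place of 2.03 to 2.11%. The summed level of the 5 went from 244 to 252 CPM per kilobase in Cnsi to 173 to 182 in Cnsi IFNγ, so the fall of *TGFA* was larger than the gains of the rising ligands on this scale. In PD-L1si IFNγ the *TGFA* share was 89.4 to 90.1% and the *EREG* share 5.68 to 6.00%, outside the ranges of Cnsi IFNγ. In 786-O *TGFA* made up 97.9 to 98.0% in Cnsi and 90.4 to 92.5% in Cnsi IFNγ, and the sum went from 102 to 109 to 42.9 to 51.1 CPM per kilobase.

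*HGF* (ENSG00000019991, chromosome 7, 81699010 to 81770438, minus strand), the MET ligand, was at or near 0 without IFNγ and was detected in all 12 IFNγ libraries. In A498 it had 0, 0 and 0 counts in Cnsi and 40, 48 and 40 in Cnsi IFNγ, which is at least 45.6-fold higher against a floor of 3 counts over the group (adjusted p = 6.87e-14). With PD-L1si it had 0, 1 and 1 counts without IFNγ and 63, 64 and 51 with it, a ratio of 114 with a 95% counting interval of 31.2 to 950.3. In 786-O it had 5, 0 and 0 counts in Cnsi and 15, 22 and 19 in Cnsi IFNγ, a ratio of 12.3 (4.98 to 39.4; adjusted p = 1.05e-04). With PD-L1si it had 0, 3 and 0 counts without and 17, 30 and 20 with IFNγ, a ratio of 24.2 (7.94 to 120.5). All 5 counts of untreated Cnsi in 786-O came from replicate 1, without which that group is at 0. Even with IFNγ the level was low, at most 3.38 CPM in A498 and 1.03 CPM in 786-O, beside *MET* at 946 to 1532 CPM in the same groups. The counting intervals cover counting error only.

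*GAS6* (ENSG00000183087, chromosome 13, 113820549 to 113864076, minus strand), the vitamin K-dependent ligand of AXL, fell in A498 while its receptor rose. It was at 114, 116 and 119 CPM in Cnsi and at 76.7, 79.5 and 77.8 CPM in Cnsi IFNγ, a log2 fold change of -0.58 ± 0.0460 (SE; adjusted p = 1.98e-13). In the PD-L1si cells the log2 fold change was -0.38, under the fold limit. In 786-O it was at 45.7, 48.2 and 44.5 CPM in Cnsi and at 47.5, 58.5 and 60.9 CPM in Cnsi IFNγ. These groups overlapped through replicate 1 of Cnsi IFNγ, and the log2 fold change of 0.27 (adjusted p = 0.00462) was under the fold limit. The overlapping antisense gene *GAS6-AS1* fell by 0.61 on the log2 scale in A498 and had a log2 fold change of -0.45 in 786-O, under the fold limit, where *GAS6* was at 0.27.

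Per kilobase of merged exon the order in A498 Cnsi was *TGFA* (238), *MET* (115), *AXL* (49.0), *EGFR* (36.0), *GAS6* (19.4), *EREG* (5.13), *HBEGF* (4.21), *AREG* (1.08) and *BTC* (0.185 CPM per kilobase), with no overlap between neighbours. In Cnsi IFNγ *MET* (206) came before *TGFA* (147) and *AXL* (131), and *EREG* (18.3) before *GAS6* (13.0). In 786-O Cnsi *MET* (107) and *TGFA* (104) overlapped, as did *BTC* (0.602) and *HBEGF* (0.351), and in Cnsi IFNγ *MET* (182) stood clear of *TGFA* (43.8) and *AXL* (34.7). *HGF* (0.0718) and *EREG* (0.0564) were the lowest there and overlapped. Merged exon lengths count every annotated isoform, which lowers the level of *EGFR*, whose merged exons cover 15941 bases, relative to genes with few isoforms.

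With PD-L1si in place of the control siRNA, IFNγ again raised *MET*, *AXL*, *AREG*, *EREG*, *BTC* and *HGF* in A498. These 6 of 10 were higher and none was lower, where 33.5% of all genes passed in either direction, 17.6% higher and 15.9% lower. The adjusted p-values of all 10 were under 0.05, and *TGFA* and *GAS6* kept a negative sign below the fold limit. In 786-O *MET*, *BTC* and *HGF* were higher and *TGFA* and *HBEGF* lower, 5 of 9 beside 18.4% of all genes (11.0% higher and 7.45% lower).

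**Figure D4:**
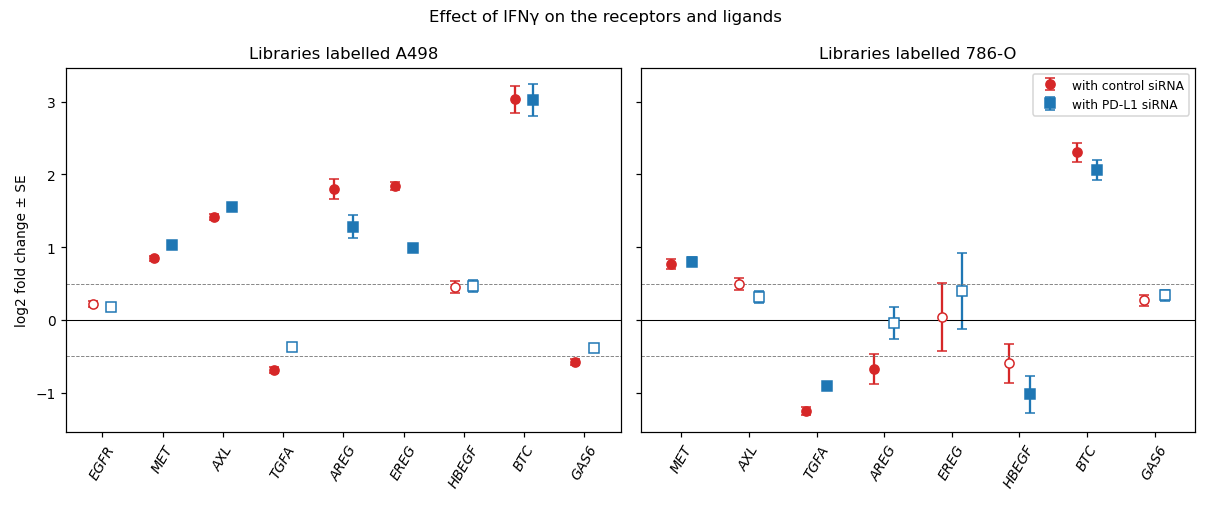
Log2 fold change with IFNγ (y axis, ± SE, 3 replicates per group) by gene (x axis) in the libraries labelled A498 (left) and 786-O (right), in cells with control siRNA (circles) and PD-L1 siRNA (squares). Filled symbols passed the test, dashed lines mark 0.5 in either direction, and *HGF* is left out because its untreated counts are at or near 0. *AREG* is at 1.79 in A498 and at -0.67 in 786-O with control siRNA, while *MET* is at 0.84 and 0.77.

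Silencing of PD-L1 under IFNγ lowered *AREG* and *EREG* and raised *HGF* in A498. The comparison shares its Cnsi IFNγ libraries with the IFNγ comparison above. The 3 genes of 10 stand beside 10.1% of all genes tested (4.36% higher and 5.75% lower), and the adjusted p-values of all 10 genes were under 0.05. *EREG* was at 103, 104 and 107 CPM in Cnsi IFNγ and at 58.9, 68.6 and 59.5 CPM in PD-L1si IFNγ, a log2 fold change of -0.75 ± 0.0522 (SE; adjusted p = 5.00e-14). *AREG* was at 6.62, 6.44 and 5.24 CPM against 3.80, 3.90 and 3.15 CPM, a log2 fold change of -0.76 ± 0.125 (adjusted p = 6.35e-06). *HGF* moved the other way, from 40, 48 and 40 counts to 63, 64 and 51, a log2 fold change of 0.65 ± 0.178 (adjusted p = 0.00426). The groups did not overlap for any of the 10 genes, including the 7 that did not pass. The share of all genes without overlap was not computed, so this lack of overlap is not read as a result about the 10 genes.

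The receptors had smaller values in the same comparison, with log2 fold changes of -0.42 for *EGFR*, -0.29 for *AXL* and -0.18 for *MET*. Those of *BTC* (-0.44), *HBEGF* (-0.28), *GAS6* (-0.23) and *TGFA* (0.19) were also below the fold limit, although that of *BTC* was -0.51 without PD-L1si IFNγ replicate 2. The median over the 10 genes was -0.29, and over all genes 0.01. In A498 without IFNγ, 0 of the 10 genes passed by edgeR or DESeq2 (8.48% of all genes passed by edgeR), and 6 had a p-value under 0.05 both before and after adjustment. The log2 fold changes there were -0.43 for *AXL* and *GAS6*, -0.38 for *EGFR*, -0.36 for *MET*, -0.30 for *HBEGF* and -0.13 for *TGFA*, with adjusted p-values from 9.35e-11 for *AXL* to 0.0180 for *TGFA*. *EREG*, at 0.10 (adjusted p = 0.239), and *AREG*, at -0.25 (adjusted p = 0.327), did not pass without IFNγ.

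In the libraries labelled 786-O, silencing of PD-L1 under IFNγ changed 0 of the 9 genes by edgeR or DESeq2, where 3.03% of all genes passed by edgeR. At an unadjusted p-value under 0.05 there were 2, *MET* and *AXL*. *MET* went from 1145, 1430.4 and 1369.8 CPM in Cnsi IFNγ to 946, 968 and 1020.0 CPM in PD-L1si IFNγ, a log2 fold change of -0.43 ± 0.0668 (SE; adjusted p = 1.95e-04). Every silenced library was below every control library, and without Cnsi IFNγ replicate 1 the value was -0.52 and passed the fold limit. *AXL* was at -0.24 (adjusted p = 0.0653). Without IFNγ *AREG* fell, the only one of 9 beside 2.81% of all genes (1.63% lower), from 1.73, 2.04 and 1.92 CPM to 0.902, 1.41 and 1.11 CPM, a log2 fold change of -0.72 ± 0.197 (adjusted p = 0.0141). These values rest on 26 to 57 counts per library, and the adjusted p-value was 0.0585 without Cnsi replicate 2, 0.104 without PD-L1si replicate 1 and 0.0572 without PD-L1si replicate 3. *MET* (-0.46) and *TGFA* (-0.38) were under the fold limit there, and *MET* was at -0.51 without PD-L1si replicate 2.

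**Figure D5:**
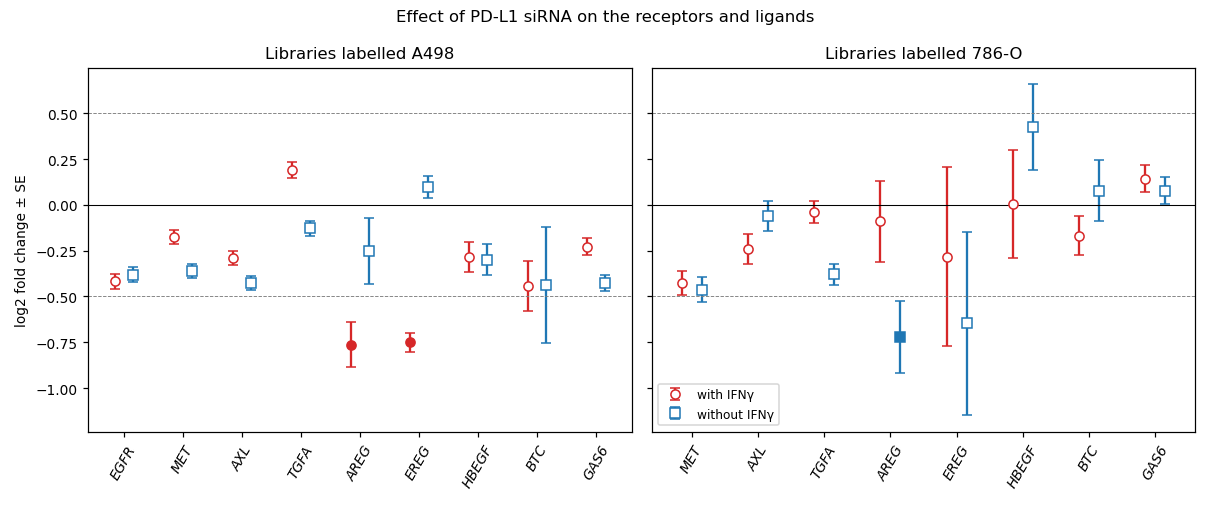
Log2 fold change of PD-L1 siRNA against control siRNA (y axis, ± SE, 3 replicates per group) by gene (x axis) in the libraries labelled A498 (left) and 786-O (right), with IFNγ (circles) and without (squares). Filled symbols passed the test, dashed lines mark 0.5 in either direction, and *HGF* is left out for its low counts. *AREG* and *EREG* with IFNγ in A498, at -0.76 and -0.75, and *AREG* without IFNγ in 786-O, at -0.72, are the filled symbols.

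The interaction of siRNA and IFNγ asks whether the IFNγ effect itself differed with PD-L1si. In A498 *EREG* was the only one of the 10 genes to pass, beside 2.45% of all genes (0.645% lower), with an interaction of -0.85 ± 0.0801 on the log2 scale (SE; adjusted p = 1.47e-09), from an IFNγ effect of 1.84 with Cnsi and 0.99 with PD-L1si. For *TGFA* the interaction was 0.32 (adjusted p = 3.18e-04) and for *MET* 0.19 (adjusted p = 0.0248), both under the fold limit. For *AREG*, whose point estimate was -0.51, the test did not pass (SE 0.222; adjusted p = 0.164), so a different IFNγ effect with PD-L1si was not shown for it. In 786-O 0 of the 9 genes passed by edgeR or DESeq2 beside 0.0990% of all genes, and 2, *TGFA* (0.34) and *AREG* (0.63), had an unadjusted p-value under 0.05, with adjusted p-values of 0.0995 and 0.590.

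The IFNγ effect in Cnsi cells was compared between the lines in one model of all 24 libraries, for the 9 genes measured in both. It differed for 8 of the 9, where 28.4% of the 17999 genes tested in both lines differed. Given as 786-O minus A498 on the log2 scale, the differences were -2.47 ± 0.237 (SE) for *AREG*, -1.81 for *EREG*, -1.06 for *HBEGF*, -0.93 for *AXL*, -0.73 for *BTC*, -0.56 for *TGFA* and 0.84 for *GAS6*, with adjusted p-values from 1.55e-11 for *AREG* to 0.0176 for *BTC*. *HGF* also differed (adjusted p = 0.0139), but its fitted values rest on untreated counts at or near 0 and the difference did not pass without 786-O Cnsi replicate 1, nor did that of *BTC* (adjusted p = 0.0705). The difference of *TGFA* was -0.48, under the fold limit, without 786-O Cnsi IFNγ replicate 1. *MET* was the one gene that did not pass, with a difference of -0.08 ± 0.0780 (SE; adjusted p = 0.402). For the effect of PD-L1si under IFNγ, 0 of the 9 genes differed between the lines by edgeR (5.60% of all genes did), and 4 had an unadjusted p-value under 0.05. Of these, *GAS6* (0.38, adjusted p = 0.00197), *MET* (-0.24, adjusted p = 0.0295) and *TGFA* (-0.22, adjusted p = 0.0417) were under 0.05 after adjustment but below the fold limit. The fourth was 0.68 ± 0.249 for *AREG* (adjusted p = 0.0543), which passed with protein-coding genes only (adjusted p = 0.0354), with filterByExpr (0.0434) and without A498 Cnsi IFNγ replicate 3 (0.0295), 786-O PD-L1si replicate 1 (0.0477) or 2 (0.0460), or 786-O PD-L1si IFNγ replicate 2 (0.0305). DESeq2 was not run for this comparison. These differences between the lines cannot be told apart from differences between the instruments.

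The other genes of these pathways were taken from 7 lists of 74 genes compiled by hand from general knowledge. With IFNγ in A498 Cnsi cells, 22 of the 68 tested rose and 6 fell (median log2 fold change 0.25), beside 18.2% of all genes higher and 18.5% lower, or 36.8% in either direction. These shares are the background of each list's count, and no list was tested against the other genes. Of 15 feedback and target genes of ERK, 9 rose and 0 fell (median 1.07), led by *SPRY4* (3.58) and *DUSP5* (2.45), which encode inhibitors of RAS-ERK signalling. Of 22 adaptors and signal relays 7 rose, led by *GAB1* (0.72) and *GAB2* (0.63), docking proteins of EGFR and MET. Of 10 receptor inhibitors 3 rose, led by *LRIG3* (0.74) and *CBLB* (0.69). Of 5 genes of ligand shedding 2 rose and 1 fell, with *RHBDF2* (1.79), which guides the sheddase ADAM17 to the surface, and *ADAM10* (-0.62), a sheddase of betacellulin. Among 6 other ERBB receptors and ligands 1 rose and 3 fell, with *NRG1* at 1.36 and *NRG4* at -0.87. *MST1* fell (-0.62), the only one of 7 genes around HGF and MST1 activation, and *PROS1* (-1.15), a ligand of TYRO3 and MERTK, the only one of 3 further genes of the TAM family (TYRO3, AXL and MERTK with their ligands).

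In 786-O 11 of 55 rose and 3 fell (median 0.08), beside 11.1% of all genes higher and 7.39% lower. *MST1R* (1.14), the receptor related to MET, and *SPINT2* (0.75), which inhibits HGF-activating proteases, rose, and so did *NRG1* (0.75), *EGF* (0.69), *SOS1* (0.72), *PTPRJ* (0.55) and *DUSP4* (1.10). *GAB2* (-0.91), *ERRFI1* (-1.30), a feedback inhibitor of EGFR, and *EGR1* (-1.78) fell. Of the 13 feedback and target genes of ERK tested in 786-O, 5 rose and only *EGR1* fell (median 0.46). Of the genes named here, *GAB2* (0.63 in A498), *ERRFI1* (0.59), *EGR1* (1.07) and *EGF* (-0.77) passed in opposite directions in the lines. Silencing of PD-L1 under IFNγ raised 5 and lowered 10 of 68 genes in A498, beside 4.36% of all genes higher and 5.75% lower. *PLAU* (-0.71), *RHBDL2* (-0.63), *RHBDF2* (-0.61), *TYRO3* (-0.58), *GAB2* (-0.58), *PTPRJ* (-0.57) and *SPRY4* (-0.98) fell, and *SPRY2* (0.81), *PROS1* (0.63) and *MST1* (0.62) rose. Without IFNγ 3 of the 68 were higher and 9 lower, beside 8.48% of all genes in either direction. There *PLAU* (-0.96), *RHBDF2* (-0.77), *RHBDL2* (-0.61), *TYRO3* (-0.57) and *GAB2* (-0.53) also fell, while *PROS1* (0.16) and *MST1* (-0.03) did not pass. The interaction passed for 0 of the 68, beside 2.45% of all genes. With PD-L1si under IFNγ in 786-O, 0 of 55 passed by edgeR, beside 3.03% of all genes. With no fold limit, 16 of the 55 had an adjusted p-value under 0.05, beside 2974 of the 21209 genes tested. An unadjusted p-value under 0.05 was found for 23 of the 55. The share of all genes at that unadjusted cutoff was not computed, so the 23 are not read as a result.

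The genes whose log2 (CPM + 1) followed each receptor most closely over the 12 libraries of a line are given as a description, since these libraries share 4 group means. Among 14963 genes in A498 the closest to *EGFR* were *EGFR-AS1* (r = 0.985), *H6PD* (0.984) and *CCL2* (0.983). The closest to *MET* were *PMAIP1* (0.999), *HACD1* (0.999) and ENSG00000264324 (0.998), and to *AXL* were *OAS3*, *MOCOS* and *SP100* (each 0.999). Among 14170 genes in 786-O the closest to *MET* were *KYNU* (0.996), *OTUD4* (0.995) and *SAMD8* (0.995), and to *AXL* were *VDR* (0.981), *RETREG1-AS1* (0.976) and *ENDOD1* (0.976).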

How the data were processed

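Polyadenylated RNA of 24 cell line libraries was sequenced as paired reads of 100 bases after a stranded TruSeq library preparation. The authors trimmed the reads with Trimmomatic 0.36.6, aligned them to GRCh38 with HISAT2 2.1.0 and counted reads of mapping quality of at least 12 on GENCODE 33 genes with featureCounts 1.6.3 in a stranded mode. The deposited values are raw counts per gene, whole numbers with no normalization. The sample labels gave the line, group and replicate number of each library, and 0 columns had no sample. GENCODE 44 gave symbols, positions and merged exon lengths for 39148 of the 39321 genes by identifier (29950 with the same version), among them all 10 genes described here, and RefSeq gave the sequences before their starts.

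A gene was tested if the 3 libraries of any group together held at least 10 of its counts (20916 in A498, 21209 in 786-O). The 12 libraries of a line were scaled by TMM and fitted with group means in edgeR 4.0.16 (R 4.3.3) by the robust quasi-likelihood test, in its legacy form. P-values were adjusted by Benjamini-Hochberg over all genes tested, and a gene passed if this value was under 0.05 and its log2 fold change beyond 0.5 or -0.5. Standard errors were derived from the fold change and the F statistic. For counts at an unadjusted p-value, the share of all genes at that cutoff was not computed. Differences between the lines were tested in a model of all 24 libraries on the 17999 genes passing in both. CPM values use the TMM-scaled library sizes, except the marker sums, which use the raw library totals. The log2 CPM for correlations adds 1. Total counts per library ran from 19256316 to 30350461. Counting intervals have 95% confidence and the floor for a count of 0 is 3 counts. The test was tried on simulated data with 200 changed genes. The chi-square per degree of freedom between replicates ran from 1.63 to 24.3 over the 24 pairs, so no library was counted as a duplicate. The alternatives were DESeq2 1.42.0, relative log expression scaling, other filters and thresholds, the replicate number as a block, and leaving out each library. The named genes were all 10, *CD274*, the 2 genes of each pathway list with the largest change past the threshold with IFNγ in Cnsi and with PD-L1si under IFNγ in each line, the 3 genes most correlated with each receptor, and overlapping genes. ENSG00000249942 and *ACTB* were added after their values were seen. The genes and lists were chosen with earlier results of these data known. The RNA input is given as 100 to 200 ng in the labels and 500 ng in the methods. The methods list the groups without PD-L1si alone, and the labels were followed.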

Additional observations from a re-analysis of the deposited data

Results flagged for a closer look

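The IFNγ effect on *EREG* differed between the siRNAs in A498, with an interaction of -0.85 on the log2 scale (adjusted p = 1.47e-09). The level of *EREG* in all 3 PD-L1si IFNγ libraries lay below that of all 3 Cnsi IFNγ libraries, while the groups without IFNγ overlapped.

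For 8 genes the IFNγ effect in Cnsi cells differed between the lines when the difference itself was tested, given as 786-O minus A498 on the log2 scale. *AREG* differed by -2.47, with a rise in A498 and a fall in 786-O in 3 of 3 IFNγ libraries each. *EREG* differed by -1.81, with 2 to 14 counts per library in 786-O. *HBEGF* differed by -1.06 and *AXL* by -0.93. *BTC* (-0.73) and *TGFA* (-0.56) moved in the same direction in both lines, *BTC* more in A498 and *TGFA* more in 786-O. *GAS6* differed by 0.84, with a fall in A498 and a value of 0.27 in 786-O that was under the fold limit. The fitted difference of *HGF* was -5.20, which depends on untreated counts at or near 0. The lines were sequenced on different instruments, which cannot be told apart from the lines.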

How the results depend on the processing

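Over the alternatives, 237 of the counts of member genes past the threshold stayed within 1.5 times their main value and 25 moved, while of the single-gene values 2171 kept their direction and side of the threshold, 14 passed newly, 6 no longer passed and 41 changed sign. With no fold limit the count of the 10 (or 9) genes became 10 for IFNγ with PD-L1si, 10 for PD-L1si under IFNγ, 6 for PD-L1si without IFNγ and 3 for the interaction in A498. In 786-O it became 1 for PD-L1si under IFNγ and 3 for PD-L1si without IFNγ, and it became 3 for the line difference in the PD-L1si effect. With a log2 fold change over 1 it became 5 for IFNγ in Cnsi, 0 for PD-L1si under IFNγ and 0 for the interaction in A498, 3 for IFNγ in Cnsi, 3 for IFNγ with PD-L1si and 0 for PD-L1si without IFNγ in 786-O, and 4 for the line difference in the IFNγ effect. The line difference in the PD-L1si effect gave 1 gene, *AREG*, with filterByExpr (adjusted p = 0.0434) and with protein-coding genes only (adjusted p = 0.0354).

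Leaving out each library in turn gave counts in A498 of 8 to 8 and 6 to 7 for IFNγ in Cnsi and with PD-L1si, 3 to 4 and 0 to 0 for PD-L1si under and without IFNγ, and 1 to 1 for the interaction. In 786-O they were 5 to 7, 5 to 5, 0 to 1, 0 to 2 and 0 to 0 in the same order. For the line differences they were 6 to 8 (IFNγ effect) and 0 to 1 (PD-L1si effect, *AREG* in each of 4 cases). *HBEGF* passed for IFNγ with PD-L1si in A498 without PD-L1si replicate 3 (0.54) or PD-L1si IFNγ replicate 2 (0.55), and *BTC* for PD-L1si under IFNγ without PD-L1si IFNγ replicate 2 (-0.51). In 786-O *HBEGF* (-0.75) and *AXL* (0.50) passed for IFNγ in Cnsi without Cnsi replicate 3, and *MET* for PD-L1si without IFNγ without PD-L1si replicate 2 (-0.51). The cause was not tested.

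The changes of sign were in values near 0 or on few counts that did not pass the test. The interaction for *HBEGF* in A498 was -0.0084 with DESeq2, -0.0062 with relative log expression, -0.0016 with no filter and -0.0062 with protein-coding genes, and *HBEGF* for PD-L1si under IFNγ in 786-O was -0.0010 with filterByExpr. Without 1 library, the A498 interaction ran from -0.069 to 0.092 for *HBEGF* and from -0.070 to 0.035 for *BTC*. In 786-O the IFNγ effect ran from -0.29 to 0.39 for *EREG* in Cnsi and, with PD-L1si, from -0.028 to 0.66 for *EREG* and from -0.23 to 0.13 for *AREG*. The effect of PD-L1si under IFNγ ran from -0.12 to 0.012 for *TGFA*, -0.21 to 0.054 for *AREG*, -0.10 to 0.18 for *HBEGF* and -0.019 to 0.33 for *HGF*, and without IFNγ from -0.053 to 0.18 for *BTC* and -3.78 to 3.09 for *HGF*. The 786-O interaction ran from -0.039 to 0.69 for *EREG*, -0.056 to 0.099 for *MET*, -2.88 to 3.99 for *HGF* and -0.039 to 0.13 for *GAS6*. The line difference ran from -0.15 to 0.0052 for *MET* (IFNγ effect) and -0.063 to 0.14 for *AXL* (PD-L1si effect).

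Over all genes, the counts in A498 for IFNγ in Cnsi, IFNγ with PD-L1si, PD-L1si under IFNγ, PD-L1si without IFNγ and the interaction were 7688, 7008, 2113, 1773 and 513, against 12819, 12233, 7122, 6452 and 1900 with no fold limit and 3656, 3204, 601, 553 and 119 with a log2 fold change over 1. In 786-O they were 3914, 3912, 643, 597 and 21, against 8238, 8172, 2974, 2721 and 46, and 1878, 1851, 163, 145 and 0. The last was 47 with no filter and 8 to 40 without 1 library. The line differences were 5105 and 1008, against 8417 and 2933, and 2145 and 286.

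In the fit with a replicate block, the counts of the 10 (or 9) genes were 8, 6, 3, 0 and 1 in A498 and 5, 5, 0, 1 and 0 in 786-O, as without it, and the counts over all genes were 7670, 6996, 2127, 1784 and 534 in A498 and 3869, 3877, 636, 600 and 18 in 786-O. The numbers do not pair the samples: deviations of same-numbered libraries had mean correlations of 0.0586 in A498 (over 0.1 in 4 of 18 pairs) and 0.0296 in 786-O (5 of 18).

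*EREG* in 786-O and *HGF* without IFNγ had at most 14 and 5 counts per library, where small changes were not detectable. *EGFR* was not measured in 786-O. Whether reads of antisense partners were counted on *EGFR*, *AXL* and *GAS6* was not tested.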
